A study of Homo sapiens with 26 samples.

Results

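The human ADP-ribosylation factors ARF1, ARF3, ARF4, ARF5 and ARF6 are small GTPases, and their ribosome footprints were followed codon by codon in cells given PF-06446846, a small molecule that acts on the translating ribosome. The 5 members were taken from the deposited table by matching each transcript to its GENCODE gene symbol, and each was represented by 1 of the 12325 transcripts. The members were chosen by the footprint counts of ARF1 with 1.5 µM compound and with vehicle, so every value of the 1.5 µM footprint comparisons is given here as a description without a test. The study asked which endogenous transcripts carry stalled ribosomes when the compound is present. It used Huh7, an established human hepatoma line, grown on plates and given fresh medium that held the compound at 1.5 or 0.3 µM, or 0.5% DMSO as the vehicle, and all were harvested into cycloheximide, which holds ribosomes on the mRNA. Study 1 held 18 footprint libraries, 3 for each of vehicle, 0.3 µM and 1.5 µM at 10 min and at 60 min, numbered replicates 1 to 3. Study 2 held 8 libraries at 60 min, replicates 4 and 5 of vehicle and of 1.5 µM, each as footprints and as poly-A mRNA.

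ARF proteins carry a myristoyl group at their N terminus and switch between a GDP-bound form in the cytosol and a GTP-bound form on membranes. Guanine nucleotide exchange factors load GTP, GTPase-activating proteins end the active state, and the active form recruits coats and adaptors. ARF1 and ARF3 form class I, with ARF1 recruiting the COPI coat and clathrin adaptors to the Golgi. ARF4 and ARF5 form class II and act between the endoplasmic reticulum and the Golgi. ARF6, the class III member, works at the plasma membrane and in endosomal recycling.

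ARF1 lies on chromosome 1 (transcript ENST00000272102, chr1:228082708-228099212, plus strand, GRCh38) with 181 sense codons in 4 coding exons. ARF3 lies on chromosome 12 (ENST00000256682, chr12:48935723-48957487, minus strand), also with 181 codons in 4 coding exons. ARF4 (ENST00000303436, chr3:57571363-57598220, minus strand) and ARF5 (ENST00000000233, chr7:127588386-127591700, plus strand) each have 180 codons in 6 coding exons. ARF6 (ENST00000298316, chr14:49893079-49897054, plus strand) has 175 codons in 1 coding exon, and its codons align with ARF1 codons numbered 4 higher.

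Each footprint was counted at the codon in the ribosomal P-site, which holds the tRNA bound to the growing chain. The results turned on a pair of codons near the start of each reading frame, 24 and 25, which are 20 and 21 in ARF6. The 30 bases around them are shown so that the paralogs can be compared base by base, with the pair in capitals. These codons open the phosphate-binding loop of the GTPase. The ARF1 window lies at chr1:228097172-228097201, the ARF3 window at chr12:48941009-48941038 and the ARF6 window at chr14:49893782-49893811, while those of ARF4 and ARF5 cross an exon junction after 10 bases.
ARF1: atcctcatggtgGGCCTGgatgctgcaggg
ARF3: atcctgatggtgGGCCTGgatgccgcagga
ARF4: attttgatggttGGATTGgatgctgctggc
ARF5: attctcatggttGGCTTGgatgcggctggc
ARF6: atcctcatgttgGGCCTGgacgcggccggc
The capital bases of ARF1, ARF3 and ARF6 were the same.

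A second codon, 69 (65 in ARF6), held the tallest vehicle footprint peak of most members. It lies where the GTPase meets the last phosphate of GTP. Its window is shown with that codon in capitals, at chr1:228097386-228097415 for ARF1, chr12:48940034-48940063 for ARF3, chr3:57583934-57583963 for ARF4, chr7:127589529-127589558 for ARF5 and chr14:49893917-49893946 for ARF6.
ARF1: gtgtgggacgtgGGTggccaggacaagatc
ARF3: gtgtgggatgtgGGTggccaggacaagatt
ARF4: gtatgggatgttGGTggtcaagatagaatt
ARF5: gtctgggacgtgGGAggccaggacaagatt
ARF6: gtatgggatgtgGGCggccaggacaagatc
Both positions were picked after the codon profiles had been seen. Sequences were read from GENCODE transcripts on GRCh38.

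Reads of close paralogs can be counted in more than 1 transcript, because a read that aligned equally well to several transcripts was counted at each of them. The coding bases of ARF1 were 83.9% identical to ARF3, 75.3% to ARF5, 67.9% to ARF6 and 67.0% to ARF4. No 28-base window of ARF1, ARF4, ARF5 or ARF6 occurred exactly in another of the 11270 transcripts of the table that were matched to GENCODE. The closest pair of windows between ARF1 and ARF3 differed by 1 base, and with the P-site on codon 25 the ARF1 window differed from ARF3 by 3 bases, from ARF5 by 6, from ARF6 by 5 and from ARF4 by 8. The deposited counts bore the same separation, since none of the 179 ARF1 codons with at least 100 reads had the same counts across libraries as a codon of another transcript.

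ARF3 differed from its paralogs in this respect. Windows at 172 of its 182 codons, stop codon included, also occurred in a separately annotated readthrough gene, ENSG00000272822, and 118 of the 125 ARF3 codons with at least 100 reads had counts identical to a codon elsewhere in the table. None of these 125 codons had the counts of another ARF. The ARF3 values therefore cannot be told apart from those of the readthrough transcripts, and they are given with that limit.

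Reads on coding sequences ranged from 6414227 to 22224137 in the footprint libraries and from 15227654 to 22036358 in the mRNA libraries. Of 10 hepatocyte markers 9 were in the table, with a summed level of 20258 to 32402 RPM (reads-per-million of a library's coding reads) in the footprint libraries. ALB was not found by name, but 1055 transcripts had no name, and the study's secretome data list serum albumin. Of 6 markers of other liver cells 4 were in the table, with DCN at 0 to 0.257 RPM, PECAM1 at 11.5 to 26.7, CD68 at 35.6 to 59.3 and LYZ at 369 to 1047. Each library pools the cells of a plate, so fewer cells with a footprint and fewer footprints per cell cannot be told apart. The number of calls moved with single libraries. Without replicate 3 of the 10 min vehicle, the number of transcripts past an FDR of 0.1 at 1.5 µM went from 94 to 1656.

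In vehicle-treated cells ARF1 had the highest footprint density. In study 2 it was 2.85 and 2.72 RPM per codon, against 0.814 and 0.763 for ARF4, 0.663 and 0.548 for ARF3, 0.514 and 0.518 for ARF5 and 0.497 and 0.446 for ARF6. The ranges of ARF1 and ARF4 stood clear of each other and of the rest, whereas ARF3, ARF5 and ARF6 lay close together, with ARF3 above ARF5 in both libraries and ARF5 above ARF6. At 10 min in study 1, ARF1 had the density of rank 220 among 12325 transcripts, in the top 1.78%. The mRNA order was different. ARF1 again led, with 2.13 and 2.21 RPM per codon of mRNA, followed by ARF5 with 0.839 and 0.724, and then by ARF3 with 0.503 and 0.427, which lay just above the overlapping ranges of ARF4 (0.425 and 0.372) and ARF6 (0.417 and 0.393).

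The ratio of footprint to mRNA density, the translational efficiency, set the class II members apart. ARF4 had vehicle ratios of 1.92 and 2.05 in the replicates 4 and 5. ARF5 had 0.612 and 0.715. Both are 180 codons long, and they lay on either side of the median ratio of 0.924 over 10893 transcripts. ARF1 (1.34 and 1.23), ARF3 (1.32 and 1.28) and ARF6 (1.19 and 1.13) lay between them and above that median.

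**Figure D1:**
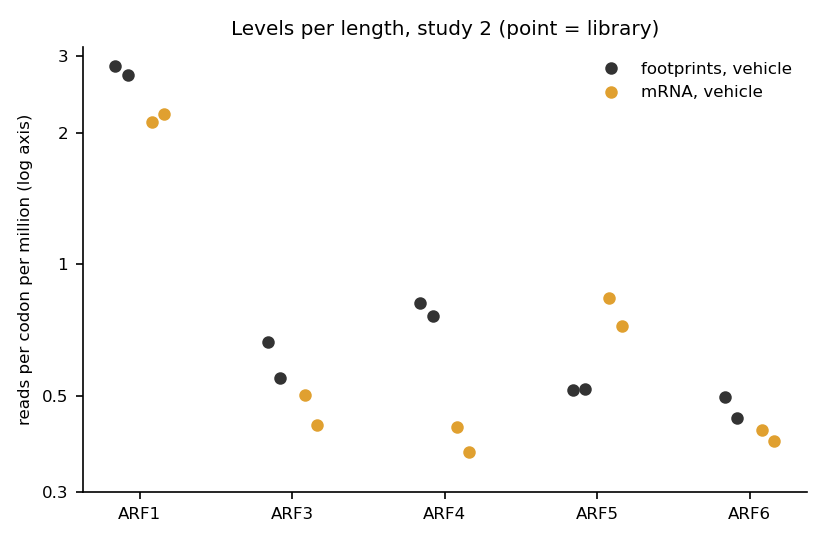
Density of vehicle footprints (black) and mRNA reads (orange) for the 5 ARF transcripts in study 2, in RPM per codon on a log axis, with 1 point for each library. ARF1 is highest in both, ARF4 is second in footprints, and ARF5 is second in mRNA, with 0.839 and 0.724.

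The vehicle profiles were dominated by codon 69. In ARF1 it held 89.1, 48.7 and 66.1 RPM in the 10 min libraries and 149, 61.8 and 87.6 in the 60 min libraries of study 1, which was 11.1% ± 2.65 and 13.8% ± 5.43 of all ARF1 reads (SD, n = 3). In study 2 it held 28.6 and 33 RPM. It was the tallest ARF1 codon in all 3 vehicle groups by the group mean. The same codon was also the tallest in all 3 vehicle groups for ARF3, with means of 14.6, 17.2 and 7.72 RPM, and for ARF6, with 10.2, 11 and 4.48 at its codon 65. In ARF5 it led in study 1 with 14.7 at 10 min and 14.7 at 60 min, and stood below codon 180 in study 2 (3.8 against 6.21). In ARF4 codon 180 stood slightly above it at 10 min (8.69 against 8.23), and codon 69 led in the other vehicle groups. The ARF1 mRNA had no such peak, and its tallest codon was codon 126 with 7.28 RPM.

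Just past this peak, footprints thinned out. Over codons 72 to 79 the ARF1 density was 0.0808 of the gene's mean at 10 min, 0.0149 at 60 min and 0.0913 in study 2, against 0.865 in mRNA. ARF6 had a gap in the same place, with 0.0676, 0 and 0.0342 against 0.707 in mRNA. ARF3 and ARF4 were less depleted there, with ratios of 0.201 to 0.434 and of 0.304 to 0.466 in footprints, and ARF5 had 0.23, 0.0771 and 0.16 against 1.13 in mRNA. ARF1 was also sparse over codons 5 to 15, at 0.077, 0.0377 and 0.176 of its mean, where mRNA coverage was 0.582. All members were below their mean there in vehicle footprints, ARF4 at 0.141, 0.134 and 0.289, ARF5 at 0.108, 0.124 and 0.238, ARF3 at 0.254 to 0.42 and ARF6 at 0.303 to 0.427, with mRNA ratios of 0.821 to 0.924 for these 4. The ARF6 window is its codons 1 to 11, which include the start codon, so it is less alike.

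With 1.5 µM PF-06446846 the tallest ARF1 codon at 10 min was no longer 69 but 25. Codon 25 held 66.4, 55.4 and 55 RPM in the 3 treated libraries at 10 min and 14.4, 9.45 and 25.8 in the vehicle libraries. Codon 24 held 21.8, 44.1 and 27.3 against 2.44, 2.56 and 10.2. Every treated library was above every vehicle library at both codons. Together they took 21.6, 22.6 and 18.4% of all ARF1 reads in the treated libraries and 2.68, 2.29 and 5.44% in vehicle, where an even spread would put 1.1% on 2 codons.

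At 60 min the ARF1 rise was smaller, with a higher vehicle mean and a wider spread among the treated libraries. The pair took 9.97, 13.6 and 17.1% of reads with 1.5 µM and 3.26, 5.95 and 4.38% with vehicle, again without overlap. Study 2 gave 15.5 and 16% and 3.64 and 4.96%. In RPM the treated mean was 4.16 times vehicle at 10 min, 2.1 times at 60 min and 2.84 times in study 2. At 60 min the lowest treated library held 39.7 RPM at the pair and the highest vehicle library 38.7. Codon 24 by itself overlapped vehicle then, with 6.97, 15 and 36.4 against 7.02, 14.3 and 6.94. Codon 25 did not, with 32.8, 57.8 and 51 against 17.5, 24.4 and 24.9. The mRNA libraries showed no accumulation at the pair, with 1.37 and 0.896% in treated and 1.38 and 1.48% in vehicle.

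**Figure D2:**
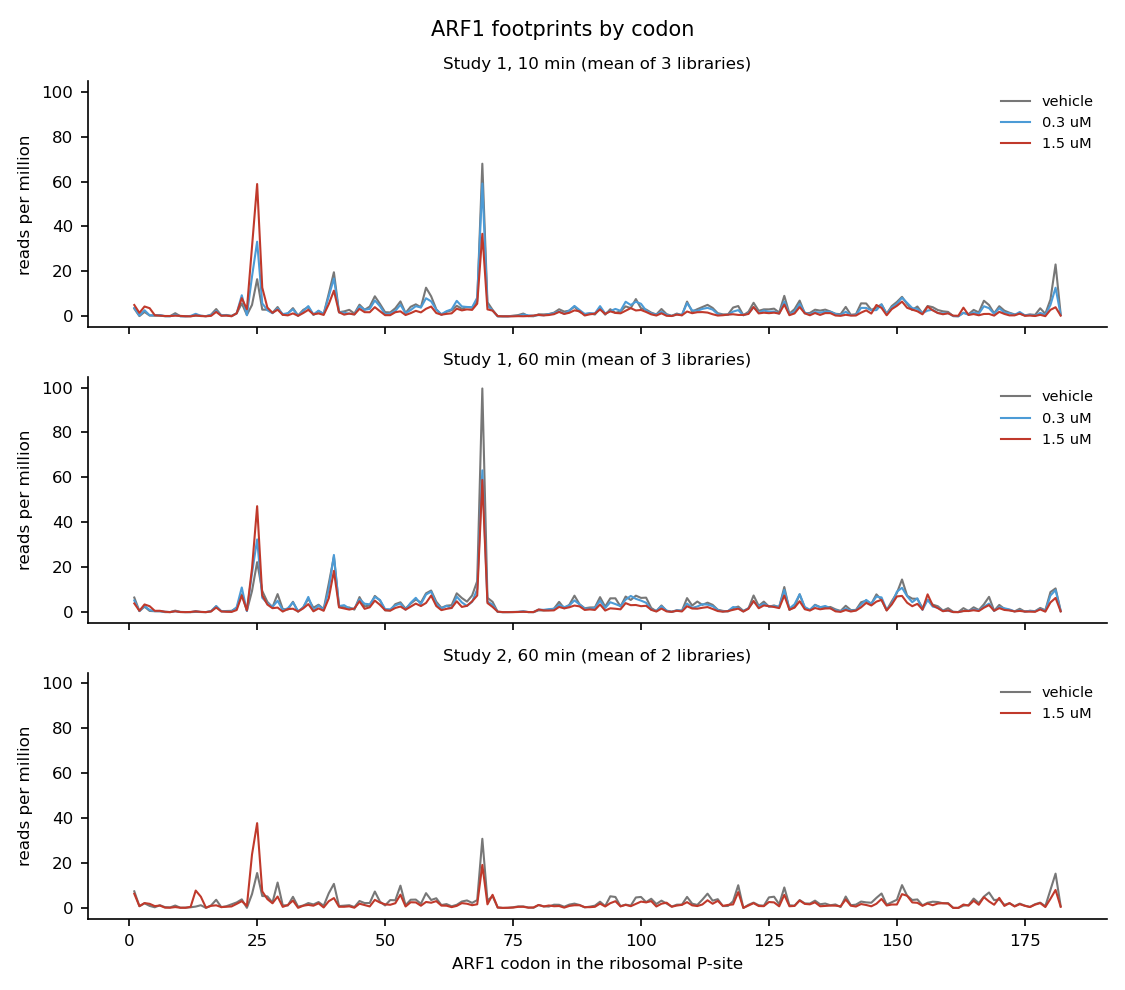
Mean ARF1 footprints by codon in the ribosomal P-site, in RPM, for vehicle (grey), 0.3 µM (blue) and 1.5 µM (red) in study 1 at 10 min and at 60 min (3 libraries each) and in study 2 (2 libraries each). Codon 25 rises from 16.5 to 58.9 at 10 min with 1.5 µM, while codon 69, the tallest in vehicle, is lower with it.

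A further ARF1 position stood out in study 2. Codon 13 held 7.55 and 7.91 RPM with 1.5 µM and 0.728 and 0.45 with vehicle. In study 1 it held 0.873, 0.205 and 0.105 with 1.5 µM at 10 min and 0.9, 0.143 and 0 at 60 min, which overlapped vehicle (0.058, 0.561 and 0.236 at 10 min, and 0.156, 0 and 0.0991 at 60 min). ARF1 mRNA was also higher at this codon in both treated libraries of study 2, with 1.9 and 2.5 against 1.56 and 0.771. ARF3 held 1.48 and 0.887 there with 1.5 µM in study 2 and 0 and 0.113 with vehicle. In study 1 ARF3 overlapped vehicle at this codon, with 0, 1.74 and 0.105 against 0.232, 0.481 and 0.353 at 10 min. At 60 min it held 0.765, 0 and 0.8 against 0.624, 0.193 and 0.0991, also overlapping. ARF4 was higher at the same codon in study 1 as well, with 1.31, 3.08 and 1.37 against 0.406, 0.4 and 0.236 at 10 min and 2.13 and 3.77 against 0.437 and 0.9 in study 2. This codon was noticed only after the profiles were drawn.

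Downstream of the pair, ARF1 footprints were fewer. After codon 50, taken here for every member as a fixed boundary past the pair, the treated libraries held 209.5, 252 and 266 normalised RPM at 10 min and vehicle held 465, 393 and 484. At 60 min the values were 262, 375 and 336 against 598, 483 and 564, and in study 2 they were 267 and 222 against 394 and 358. All 3 comparisons were lower in every treated library. How many other transcripts stood apart in this way was not counted, here, over the whole frame or at the codon pair. Over all transcripts, edgeR's fit after codon 50 called 195 of 10745 at an FDR of 0.1 at 10 min. It called 19 of 10709 at 60 min and 29 of 10993 in study 2. The estimated log2 fold change after codon 50 was -0.86 ± 0.118 at 10 min, -0.75 ± 0.148 at 60 min and -0.62 ± 0.0863 in study 2 (SE).

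Counted over the whole reading frame, which includes the early peak, the ARF1 difference was smaller. Its log2 fold change was -0.44 ± 0.114 at 10 min, -0.55 ± 0.142 at 60 min and -0.38 ± 0.0765 in study 2 (SE). The 10 min libraries held 405, 440.0 and 445 normalised RPM with 1.5 µM and 598, 492 and 652 with vehicle, without overlap. Up to codon 50 the treated libraries instead held more, 188 ± 8.39 against 133 ± 34.2 (SD, n = 3), at 10 min. At 60 min that part of the frame gave means of 171 against 179.9.

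The ratio of footprints to mRNA was followed as well. The ARF1 translational efficiency was 1.34 and 1.23 in the vehicle replicates 4 and 5, and 1.09 and 0.929 with 1.5 µM. The estimated change in efficiency was -0.34 ± 0.114 on the log2 scale over the whole frame and -0.54 ± 0.13 after codon 50 (SE). ARF1 mRNA density was 2.13 RPM per codon in both treated libraries and 2.13 and 2.21 in vehicle.

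The members were not tested in the 1.5 µM footprint and efficiency contrasts, through which the family was chosen. Over all transcripts, edgeR's quasi-likelihood test of the whole reading frame called 0.851% at an FDR of 0.1 at 10 min, 0.0726% at 60 min, 0.115% in study 2 and 0.0339% for translational efficiency.

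ARF4, the class II member with the highest efficiency, carried the same early peak. Codons 24 and 25 took 12.2, 12.4 and 11.6% of its reads with 1.5 µM at 10 min and 3.05, 1.16 and 3.33% with vehicle. At 60 min they took 7.68, 9.13 and 8.2% and 3.8, 2.51 and 2.09%, and in study 2 11.1 and 8.97% and 3.26 and 3.18%. The groups did not overlap in any of the 3 comparisons. After codon 50 the ARF4 values with 1.5 µM were 78, 89.9 and 94.2 normalised RPM against 131, 127 and 122 at 10 min, a log2 fold change of -0.51 ± 0.108 (SE). The difference was -0.26 ± 0.119 at 60 min and -0.18 ± 0.085 in study 2, nearer to 0 than at 10 min.

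ARF5 had a peak of similar relative size and downstream reads near the vehicle level. The pair took 14.4, 10.2 and 11.2% of ARF5 reads with 1.5 µM at 10 min against 3.26, 2.29 and 1.77% with vehicle, and 12.6, 8.7 and 5.25% against 2.64, 1.27 and 1.21% at 60 min. Its site RPM were 5.59 times vehicle at 10 min and 5.52 times at 60 min, the highest ratios among the 5 members at those times. In study 2 the pair took 3.76 and 6.19% against 1.02 and 1.8%. After codon 50 the estimates were 0.08 ± 0.137, -0.07 ± 0.221 and -0.06 ± 0.0832 on the log2 scale (SE) at 10 min, at 60 min and in study 2, each smaller in size than its SE.

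ARF3, the closest paralog of ARF1, had lower shares at the pair. With 1.5 µM the pair took 6.35, 6.11 and 5.37% of reads at 10 min against 0.594, 0.867 and 2.93% with vehicle. At 60 min the groups overlapped, with 0.96, 2 and 5.45% against 0.39, 2.27 and 3.09%. In study 2 they were apart again, with 6.21 and 7.26% against 3.32 and 4.51%. After codon 50 the estimates for ARF3 were -0.25 ± 0.121, -0.20 ± 0.156 and -0.18 ± 0.0885 (SE). The capital bases of its window equal those of ARF1, and the footprint windows of both over codon 25 differ by 3 bases. The 10 ARF3 codons that the readthrough transcripts do not share held only 16, 47 and 43 reads with 1.5 µM at 10 min and 135, 179 and 53 with vehicle. Over them the log2 fold change was -1.19 ± 0.315 at 10 min, -0.27 ± 0.263 at 60 min and -0.63 ± 0.238 in study 2 (SE), against -0.11 ± 0.121 at 10 min over the whole frame, and the vehicle libraries at 60 and 10 min differed there by -0.77 ± 0.307.

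ARF6 showed no clear peak. Its corresponding pair held 17, 4 and 8 reads in the treated libraries at 10 min and 13, 5 and 3 in vehicle, or 3.06, 0.465 and 0.894% against 0.82, 0.481 and 0.35% of its reads, and the groups overlapped. At 60 min the shares were 0.603, 1.35 and 0.558% against 0.313, 0.534 and 1.87%, also overlapping. With so few reads a small change would not have been detectable at this depth. After codon 50 the ARF6 estimates were -0.02 ± 0.119, -0.04 ± 0.131 and 0.09 ± 0.094 (SE). Over the whole frame at 10 min ARF6 had -0.01 ± 0.117, ARF4 -0.27 ± 0.108 and ARF5 0.20 ± 0.129 (SE). The members other than ARF1 ranged over -0.18 to 0.08 at 60 min and over -0.09 to 0.09 in study 2, and leaving out 1 library turned the sign of some.

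**Figure D3:**
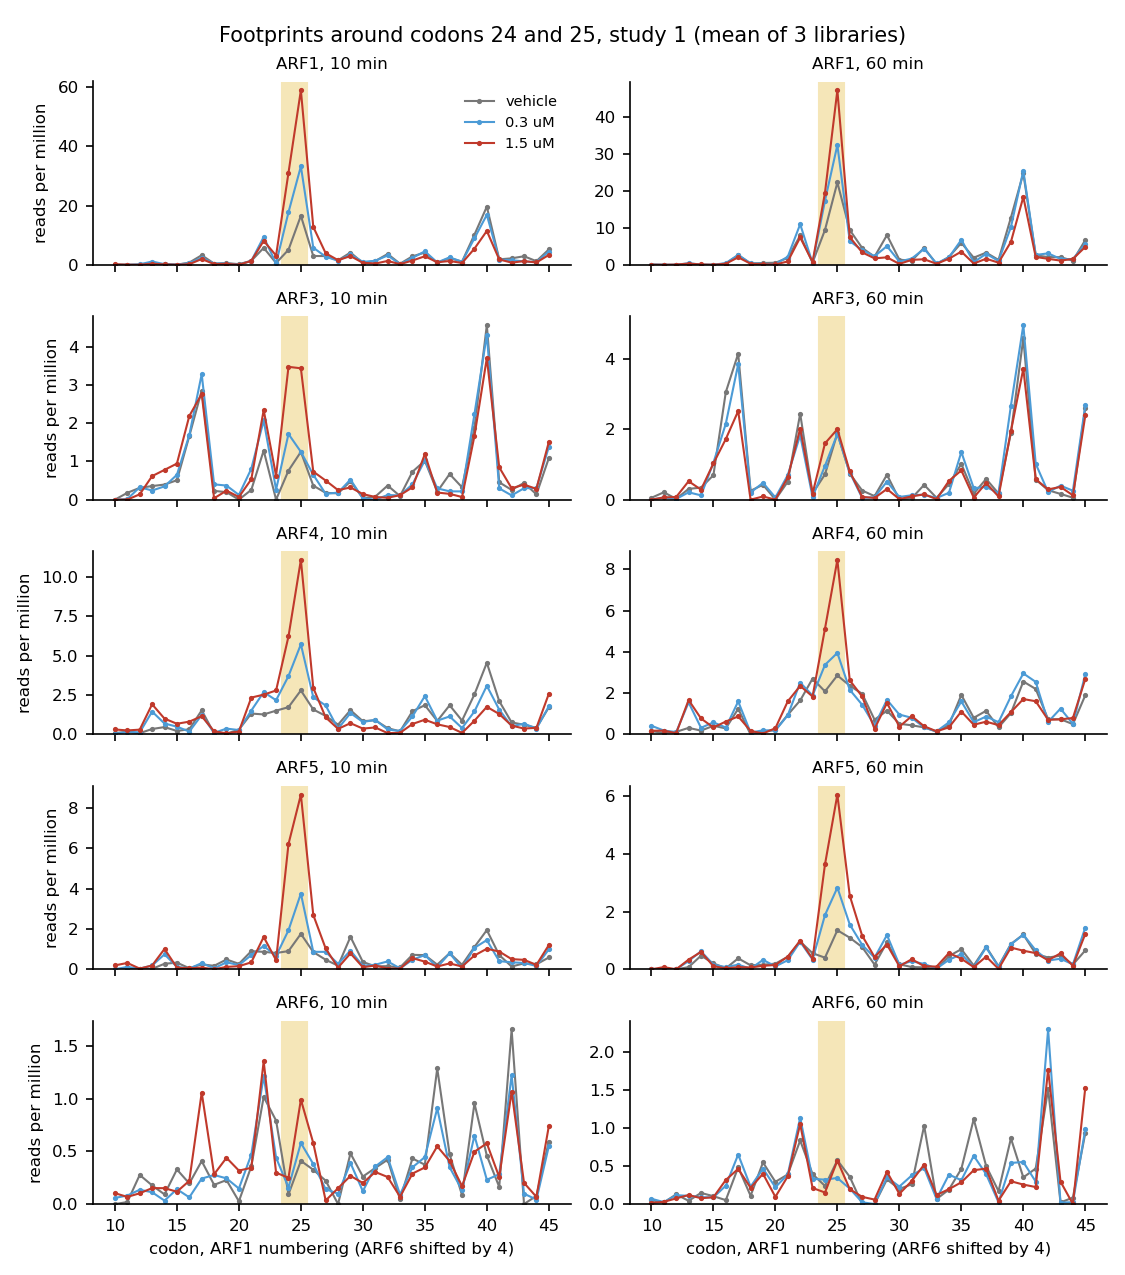
Mean footprints over codons 10 to 45 in ARF1 numbering for the 5 members in study 1, at 10 min (left) and 60 min (right), in RPM with a separate scale for each panel and codons 24 and 25 shaded. ARF1, ARF4 and ARF5 rise at the shaded codons with 1.5 µM (red) over vehicle (grey) at both times, ARF3 rises at 10 min, and ARF6 stays low.

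**Figure D4:**
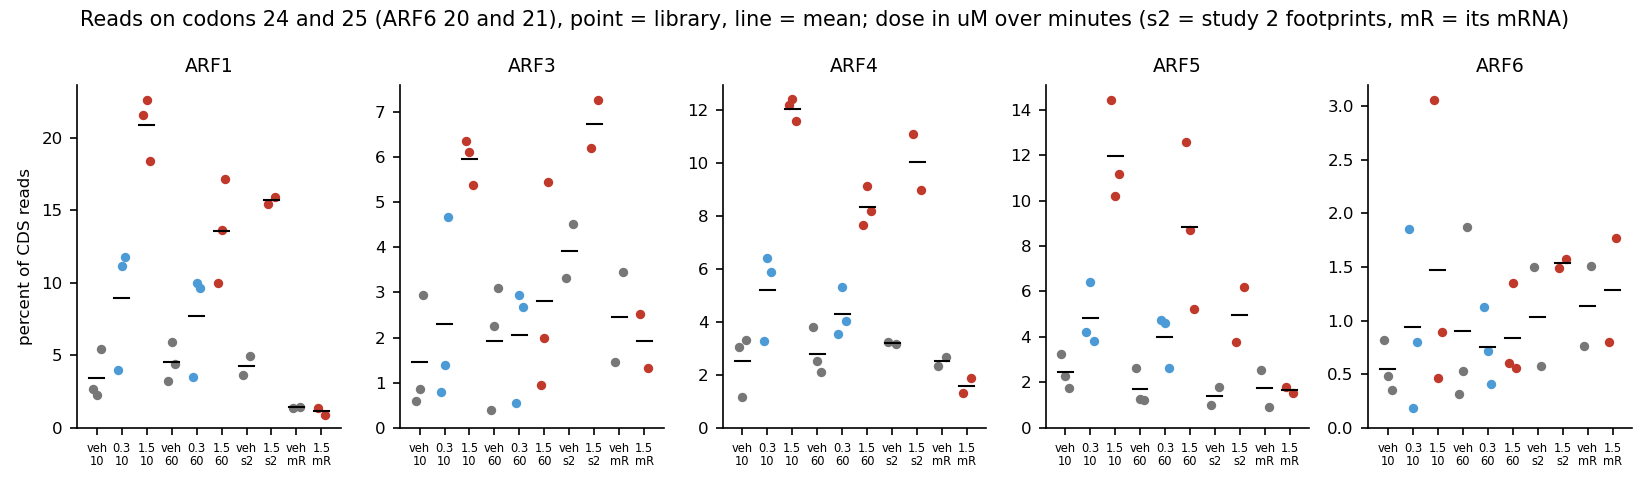
Percent of each member's reads on codons 24 and 25 (20 and 21 in ARF6) in every library, with the group mean as a line, for vehicle (grey), 0.3 µM (blue) and 1.5 µM (red) and a separate scale for each panel. For ARF1 the 1.5 µM footprint libraries at 10 min sit between 18.4 and 22.6, above every vehicle library, while the mRNA libraries stay near 1.

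Codon 69 moved differently from the early pair. With 1.5 µM at 10 min, ARF1 held 23.4, 39.5 and 47.4 RPM there, below every vehicle library. At 60 min it held 42.7, 84.6 and 49.2, which overlapped vehicle, and in study 2 it held 21.4 and 16.9 against 28.6 and 33. As a share of ARF1 reads the codon overlapped vehicle at both times of study 1 and was lower in both treated libraries of study 2, with 5.06 and 4.67% against 5.52 and 6.67%. In ARF5 the codon was at 15 RPM with 1.5 µM and 14.7 with vehicle at 10 min, and at 14.6 and 14.7 at 60 min. In study 2 it was higher with 1.5 µM in both libraries of ARF5 (means 5.14 and 3.8) and of ARF6 (6.4 and 4.48), and lower in ARF3 (4.92 and 7.72).

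The shift of reads towards the start was also measured as Dmax, the largest gap between the treated and vehicle cumulative shares of reads along the frame, divided by its root mean square over about 300 transcripts of similar depth to give a Z-score. This scaling has no centring, and values centred on the mean of those transcripts and divided by their SD are given after it. Reads of the replicates of a group were pooled first, so deeper libraries weighed more. ARF1 had a Dmax of 0.241 at codon 30 (Z = 3.08, rank 45 of 11422) at 10 min, of 0.103 at codon 27 (Z = 1.73, rank 628 of 11442) at 60 min and of 0.158 at codon 28 (Z = 4.58, rank 13 of 11405) in study 2. ARF4 had Z-scores of 2.30, 2.17 and 3.07, with the gap largest at codons 27, 53 and 28. ARF5 had 1.45, 2.81 and 1.90, at codons 27, 68 and 31. Of the ARF5 libraries at 60 min, replicate 1 had the most treated reads (2042) and the fewest vehicle reads (569). This replicate also had the highest share of reads on codons 2 to 50 in both groups, 35% and 22.7%. ARF3 (1.25, 0.209 and 1.39) and ARF6 (0.556, 0.278 and 1.11) stayed under 2, although ARF3 was at 2.32 at 10 min over its few reads on unshared codons. Over all transcripts, 3.48% reached a Z-score of 2 at 10 min, 2.67% at 60 min and 2.38% in study 2. The centred values were 3.74, 1.42 and 5.26 for ARF1, 2.52, 2.51 and 3.78 for ARF4, 1.09, 3.75 and 2.22 for ARF5, 0.759, -1.18 and 0.972 for ARF3 and -0.327, -0.780 and 0.492 for ARF6, so that ARF5 was past 2 in study 2 with this scaling alone. A centred value of 2 was reached by 4.09%, 3.46% and 3.45% of transcripts. These are the contrasts of the choice and give a description only.

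Reads on codons 2 to 50 were also counted as a share of each member's total. For ARF1 they made up 46.3, 41.8 and 39.6% of the total with 1.5 µM at 10 min and 21.3, 19.6 and 25.4% with vehicle. At 60 min the means were 33.5 ± 2.4% and 23.9 ± 4.37% (SD, n = 3), and in study 2 they were 36% and 24.5%. At 10 min the other means with 1.5 µM and with vehicle were 38.7% and 26.4% for ARF4, 31.2% and 22.9% for ARF3, 27.3% and 19.6% for ARF5 and 20.3% and 18.9% for ARF6, and ARF6 alone overlapped vehicle. At this time 32.7% of transcripts of 150 to 220 codons were higher in every treated library, as were 6.94% at 60 min and 19.3% in study 2. The difference was thus slightly larger for ARF3 (8.34 points) than for ARF5 (7.7), whereas ARF5 had the higher Dmax Z-score. At 60 min ARF4 was at 33% and 24.8% without overlap, while ARF3 (27% and 25.3%), ARF5 (25.9% and 17%) and ARF6 (19.3% and 19.6%) overlapped. Against the same-numbered vehicle library, with which the 60 min libraries deviated together, the share was higher in 3 of 3 pairs for ARF1, ARF4 and ARF5 (by 4.77 to 12.3 points for ARF5), in 2 of 3 for ARF3 and in 1 of 3 for ARF6. In study 2 ARF4 (32.8% and 26.6%) and ARF3 (29.3% and 25.1%) were apart, and ARF5 (25.1% and 21.7%) and ARF6 (22.7% and 23.4%) overlapped. Within same-numbered pairs of study 2, ARF5 was higher in both, with 22.6% against 20.5% and 27.5% against 22.9%. ARF6 was mixed, with 21.8% against 21.7% and 23.7% against 25.1%. How often like-length transcripts were higher in every pair was not counted. Transcripts of like length gave a background for these shares. Over the 836 transcripts of 150 to 220 codons, the mean over libraries of the median share was 19.7% with 1.5 µM and 16.5% with vehicle at 10 min, and 17.9% and 17.6% at 60 min.

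The 0.3 µM libraries were not used to choose the family. Their comparisons share the vehicle libraries that were used, so the p-values at this dose are not independent of the choice. With 0.3 µM, ARF1 codons 24 and 25 took 4.02, 11.1 and 11.8% of reads at 10 min and 3.51, 9.97 and 9.62% at 60 min, against 2.68, 2.29 and 5.44% and 3.26, 5.95 and 4.38% in vehicle. Replicate 1 lay among the vehicle libraries at both times, and replicates 2 and 3 lay above all of them. Same-numbered 0.3 µM and vehicle libraries deviated together over all transcripts at 60 min, and less evenly at 10 min. Against its same-numbered vehicle library the share was higher in 6 of 6 pairs for ARF1 and ARF5, 5 of 6 for ARF3 and ARF4 and 4 of 6 for ARF6. The pair of codons was picked from the profiles, so these counts carry no test. They join the pairs of 10 and 60 min and were not made for other transcripts. In RPM the mean was 2.36 times vehicle at 10 min and 1.57 times at 60 min, or 2.78 and 1.85 times when replicate 1 was left out of both groups. The ARF4 pair took 3.29, 6.42 and 5.88% of reads at 10 min and 3.55, 5.33 and 4.02% at 60 min, and its RPM overlapped vehicle at both times. The ARF5 pair took 4.23, 6.44 and 3.84% and 4.74, 4.61 and 2.64%, and in RPM every 0.3 µM library of ARF5 was above every vehicle library. How many other transcripts stood apart in this way at a pair of codons was not counted. The mean RPM was 2.08 and 1.48 times vehicle for ARF4 and 2.14 and 2.68 times for ARF5 at 10 and 60 min. For ARF3 the ratios were 1.48 and 1.09 and for ARF6 they were 1.47 and 0.816, within overlapping ranges.

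The tested measures at 0.3 µM did not pass, in tests set against the vehicle libraries of the choice. These tests are not independent of the choice, so no conclusion is drawn from them. The permutation tests could not have passed at all, since 3 against 3 libraries allow no p under 0.1 and 3 pairs none under 0.25. ARF1 reads over the whole frame had log2 fold changes of -0.10 ± 0.15 at 10 min and -0.20 ± 0.135 at 60 min (SE), with adjusted p of 1.00 for both in edgeR's quasi-likelihood test. The other members lay between -0.10 and 0.14. No member passed by edgeR at an FDR of 0.1, none did by DESeq2, and 0 of 5 had an unadjusted p under 0.05, where 0% of all transcripts were called at either time and 0.934% and 0.871% had such a p. After codon 50 the ARF1 estimates were -0.23 ± 0.129 and -0.31 ± 0.13 (SE). The ARF1 share on codons 2 to 50 was 28.3 ± 6.12% against 22.1 ± 2.99% (SD, n = 3) at 10 min, with p = 0.3 in a two-sided exact permutation test and an adjusted p of 0.556 over 15 tests. At 60 min it was 29.1 ± 4.38% against 23.9 ± 4.37%, also with an exact permutation p of 0.3. ARF4 at 60 min (30.7 ± 1.51% against 24.8 ± 1.46%) and ARF3 at 10 min (26.2 ± 1.17% against 22.9 ± 0.976%) were higher in every library, with an exact permutation p of 0.1, the smallest that 3 against 3 libraries allow, and an adjusted p of 0.556. Of transcripts of like length 4.19% were higher in every library at 10 min and 3.47% at 60 min. With same-numbered libraries as pairs, a comparison added after seeing the data, the share on codons 2 to 50 was higher in 5 of 6 pairs for ARF1, 6 of 6 for ARF3, ARF4 and ARF5 and 3 of 6 for ARF6. These counts join the pairs of 10 and 60 min. They were not made for transcripts of like length, so they have no background. The exact paired permutation p for ARF1 was 0.5 at 10 min and 0.25 at 60 min, the latter being the smallest that 3 pairs allow. Z-scores of Dmax at 0.3 µM were 2.18 and 1.91 for ARF1, 2.29 and 2.29 for ARF4, 0.854 and 1.88 for ARF5, 1.53 and 0.916 for ARF3 and 1.02 and 0.277 for ARF6 at 10 and 60 min, where 3.56% and 2.37% of transcripts reached 2. The gap was largest at codons 100 and 59 for ARF1, 70 and 55 for ARF4 and 28 and 68 for ARF5. Most of these positions lay past codon 50, so the Z-scores at this dose do not measure the early pair alone. The centred values were 2.16 and 1.76 for ARF1, 2.43 and 2.97 for ARF4, 0.0796 and 2.07 for ARF5, 1.23 and 0.0536 for ARF3 and 0.374 and -1.12 for ARF6, with ARF5 past 2 at 60 min with this scaling alone, and 4.15% and 3.66% of transcripts reached 2.

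**Figure D5:**
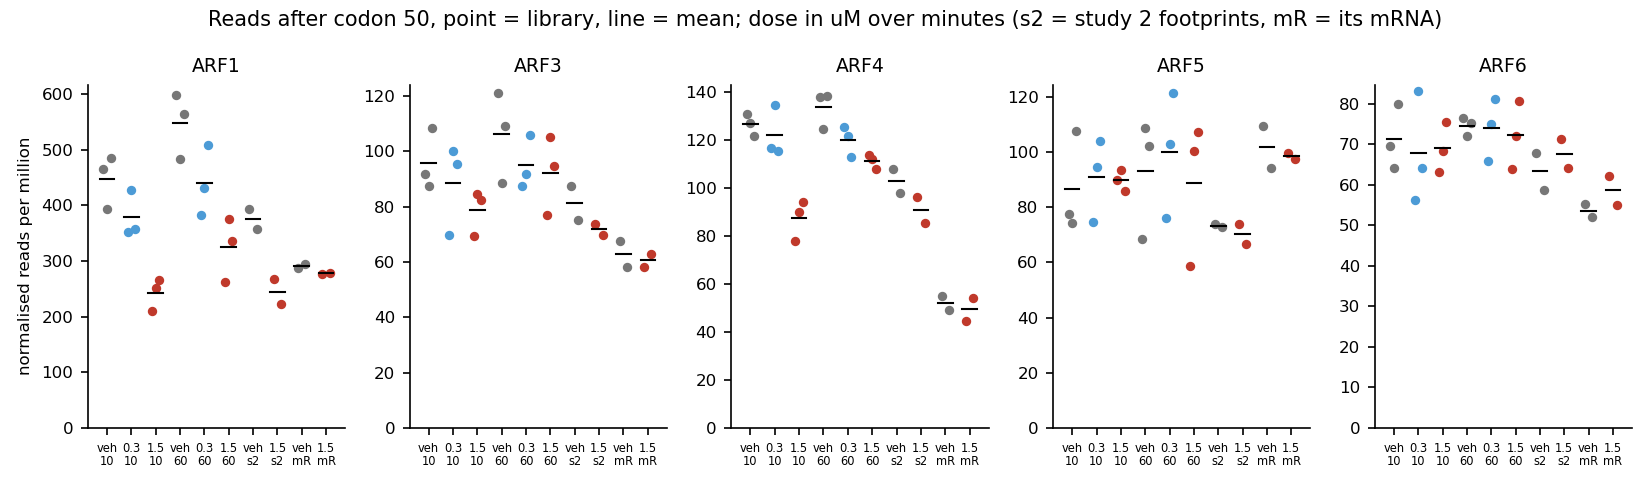
Normalised RPM after codon 50 in every library, with the group mean as a line, for vehicle (grey), 0.3 µM (blue) and 1.5 µM (red), with a separate scale for each panel starting at 0. ARF1 lies between 209.5 and 266 with 1.5 µM at 10 min against 393 to 484 in vehicle, while ARF5 and ARF6 overlap vehicle.

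The messages themselves were tested in study 2. ARF1 mRNA had a log2 fold change of -0.04 ± 0.08, ARF3 of -0.04 ± 0.113, ARF4 of -0.03 ± 0.125, ARF5 of -0.02 ± 0.101 and ARF6 of 0.18 ± 0.112 (SE), each with an adjusted p of 0.999 in edgeR's quasi-likelihood test. No member had an unadjusted p under 0.05, as 1.93% of transcripts did, and edgeR called 0% of transcripts, while DESeq2 called 0.00827% of them and no member. The mRNA share of ARF1 on codons 2 to 50 was 27.2 ± 0.46% against 25.7 ± 0.0624% (SD, n = 2), with an exact permutation p of 0.33, the smallest that 2 against 2 libraries allow. The mRNA shares of ARF4 (means 30.3% and 26.8%), ARF5 (29% and 27.6%) and ARF6 (26.6% and 23.6%) were likewise higher in both treated libraries, with the same exact permutation p, and ARF3 overlapped. Of the 836 transcripts of like length 12.7% were higher in both treated mRNA libraries, with median shares of 25.2% in both groups.

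Time in vehicle was compared as a background. Both arms are vehicle footprint libraries that the choice of the family used, so the members' values are a description without a test. ARF1 footprints had a log2 difference of 0.32 ± 0.125 (SE) between 60 and 10 min, and the other members had differences of 0.04 to 0.20. Of all transcripts edgeR called 0% at an FDR of 0.1 and DESeq2 0.357%, and 6.93% had an unadjusted p under 0.05 by edgeR.

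The partners of the ARF cycle were followed as lists: exchange factors, GTPase-activating proteins, coatomer subunits, other effectors, ARF-like and SAR GTPases and N-myristoyltransferases, which add the myristoyl group. Of the 63 genes tested, edgeR called 0 at an FDR of 0.1 in any footprint comparison or in mRNA. At an unadjusted p under 0.05 there were 11 at 1.5 µM and 10 min (17.5%, against 17.7% of all transcripts), 1 at 60 min (1.59% against 2.2%) and 2 in study 2 (3.17% against 2.97%), shares close to those over all transcripts. The 8 coatomer subunits, the coat that ARF1 recruits, had a median log2 fold change of -0.00172 at 10 min, 0.021 at 60 min and -0.0485 in study 2. The 15 GTPase-activating proteins had medians of 0.00513, -0.029 and 0.00376, and the 8 exchange factors had -0.0747, -0.0105 and -0.0331. The 16 other effectors had -0.107, -0.011 and -0.0243, the 14 ARF-like and SAR GTPases -0.0441, 0.00332 and 0.045, and the 2 N-myristoyltransferases -0.181, 0.135 and 0.131. Single genes varied more than these medians. The other effectors ranged over -0.61 to 0.26, -0.42 to 0.34 and -0.39 to 0.074. The ARF-like and SAR GTPases ranged over -0.42 to 0.16, -0.25 to 0.19 and -0.16 to 0.59. Over all transcripts the medians were 0.00552, -0.00225 and 0.000805.

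The ARF-like and SAR GTPases, which share the fold, were the nearest comparison for the early shift. The 15 with a Dmax value had median uncentred Z-scores with 1.5 µM of 0.786, 0.855 and 0.686, beside 0.732, 0.778 and 0.770 over all transcripts. Of 49 genes in the other ARF-cycle lists, 1 reached 2 at 10 min, 0 at 60 min and 1 in study 2 with 1.5 µM (2.04%, 0% and 2.04%, against 3.48%, 2.67% and 2.38% of all transcripts), and centring left these counts unchanged. They were the adaptor subunit AP1S2 at codon 98 (Z = 2.37, 10 min) and the GTPase-activating protein ACAP3 at codon 555 (Z = 2.25, study 2). Both were named after their values were seen, and both positions lay well past codon 50. The positions of ARF4 (codon 53) and ARF5 (codon 68) with 1.5 µM at 60 min also lay past it.

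Across the 18 libraries of study 1, the transcripts whose normalised footprint level ran most like that of ARF1 were PDPR (Pearson r = 0.905), AP1M1 (0.900), PPIB (0.882), BCAP31 (0.872) and SORCS2 (0.865), out of 9685 compared. AP1M1 is a subunit of the AP-1 clathrin adaptor, PPIB a prolyl isomerase of the endoplasmic reticulum and BCAP31 a membrane protein there. ARF3 ranked 12 with r = 0.823, ARF6 had 0.656, ARF4 had 0.611 and ARF5 had 0.235. The libraries share treatments and differ in depth, so these values only describe likeness over the same samples.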

How the data were processed

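Footprints and poly-A mRNA fragments of Huh7 cells were sequenced in 26 libraries. The authors trimmed adapters, removed ribosomal RNA reads, aligned to the most abundant isoform of each gene on GRCh38 (Bowtie 1.1.2 and kallisto 0.42.5, per the submitters' processing notes), and deposited the counts of reads per codon, placed by the 14th base of each read. A read with several equally good places was counted at each. The authors' script file was not used.

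Counts were summed per coding sequence and fitted over all 12325 transcripts with edgeR 4.0.16 (R 4.3.3; filterByExpr, TMM, quasi-likelihood test, Benjamini-Hochberg adjustment, FDR 0.1), with DESeq2 1.42.0 as an alternative. Normalised RPM used the TMM sizes, and other RPM values were scaled to the coding reads of a library. Scripts were tested on simulated data. Transcripts were named with GENCODE v44, which left 1055 unnamed. Sequence windows of 28 bases were read with Biopython 1.88, and exact permutation tests ran in scipy 1.17.1 (Python 3.11.15). Dmax used bins of 300 transcripts with at least 10 reads, with each value divided by its bin's root mean square or, as an alternative, centred on the bin mean and divided by the SD. The 5 members were always named, of the lists every gene past FDR 0.1 where 5 or fewer passed (otherwise the 3 largest changes), and the 5 transcripts most like ARF1. Members, lists and codons were chosen with earlier results of these data known.

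Same-numbered libraries deviated together at 60 min, for 1.5 µM and vehicle (r = 0.513, 0.384 and 0.507) and for 0.3 µM and vehicle (0.429, 0.428 and 0.539). At 10 min the values were lower in most libraries, at 0.191, 0.145 and 0.515 for 0.3 µM and 0.183, 0.225 and 0.0686 for 1.5 µM. For vehicle over time they were -0.0518, -0.0525 and 0.479. The numbers, taken from the sample titles, were used to pair libraries at 60 min and at 0.3 µM. At 0.3 µM and 10 min this pairing rests mainly on replicate 3. Study 2 had 2 pairs. The main fits and the unpaired permutation tests held no replicate term, and the replicate block was an alternative. The main efficiency fit also held no term for the sample that gave both footprints and mRNA. Replicates were called biological in the study's methods, without saying more of their cultures, so p-values measure the spread between these libraries.

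Alternatives were DESeq2 size factors, no filter, the replicate block, reads after codon 50, unshared codons, 1 fit of all 18 libraries, codons 2 to 40, other window lengths (26 and 34 bases), leaving out each library and, for shares at 0.3 µM, an exact paired permutation test added later. Depth ranged from 6414227 to 22224137 reads in footprint libraries and from 15227654 to 22036358 in mRNA libraries. The counts carry no molecular identifiers.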

Additional observations from a re-analysis of the deposited data

How the results depend on the processing

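Counted after codon 50, the ARF1 log2 fold change with 1.5 µM was -0.86 at 10 min, -0.62 in study 2 and -0.54 for translational efficiency, and that of ARF4 at 0.3 µM and 10 min reversed to -0.0446. Such counts leave out the early peak by construction. Left to its 10 unshared codons, ARF3 gave -1.19 at 10 min, -0.63 in study 2 and -0.71 for efficiency, and it reversed to 0.0597 in mRNA and to -0.772 between vehicle times, with the cause not tested. The ARF3 share had no value there, since none of these codons lies in 2 to 50. With codons 2 to 40, the ARF6 share at 0.3 µM reversed to -0.310 points at 10 min and -0.641 at 60 min. Without replicate 1, added after seeing the data, the site ratio at 0.3 µM was 2.89 and 2.02 for ARF4.

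With the replicate block, the ARF1 estimates were -0.43 at 10 min, -0.57 at 60 min, -0.38 in study 2, -0.34 for efficiency and -0.04 in mRNA, near those without it, while the number of calls rose from 94 to 1196 at 10 min, from 8 to 51 at 60 min, from 13 to 129 in study 2 and from 4 to 13 for efficiency, and from 0 to 7 between vehicle times. DESeq2 called 519, 17, 15, 11 and 43 in the same order, and 1 in mRNA. A fit of all 18 libraries called 30 at 10 min. Leaving out 1 library at a time gave 9 to 1656 calls at 10 min, 0 to 8 at 60 min, 10 to 129 in study 2, 1 to 128 for efficiency, 0 to 2 in mRNA and 0 to 1 between vehicle times. In none of 180 alternatives of the log2 fold changes at 0.3 µM and in mRNA did a member pass.

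Leaving out 1 library at a time, ARF1 ranged over -0.55 to -0.35 at 10 min, -0.66 to -0.41 at 60 min, -0.49 to -0.27 in study 2, -0.45 to -0.24 for efficiency, -0.0546 to -0.0145 in mRNA and 0.22 to 0.42 between vehicle times. With 1.5 µM at 60 min, ARF3 ranged over -0.27 to -0.0601, ARF4 -0.14 to -0.0545, ARF5 -0.0622 to 0.24 and ARF6 -0.14 to 0.0154. In study 2 these were -0.21 to 0.0486, -0.10 to 0.0152, -0.0250 to 0.0308 and 0.0174 to 0.17. At 0.3 µM and 10 min the ranges were -0.23 to 0.00626 for ARF1, -0.16 to 0.12 for ARF3, -0.0606 to 0.0854 for ARF4 and -0.23 to 0.0539 for ARF6. At 60 min they were -0.35 to -0.0693 for ARF1, -0.22 to 0.000276 for ARF3, -0.0808 to 0.00191 for ARF4 and -0.0689 to 0.0639 for ARF6. In mRNA they were -0.15 to 0.10 for ARF3, -0.17 to 0.10 for ARF4 and -0.13 to 0.10 for ARF5, and ARF5 between vehicle times ranged over -0.0543 to 0.23. Share differences on codons 2 to 50 ranged over -0.47 to 0.88 (ARF6, 0.3 µM, 10 min), -1.02 to 1.84 (ARF6, 60 min), -0.57 to 5.22 (ARF5, 60 min) and -0.27 to 1.34 points (ARF3, mRNA). ARF6 held 2 to 18 reads on its pair in a footprint library, a depth at which a small change was not detectable. With same-numbered libraries as pairs, added after seeing the data, 3 pairs allow no p under 0.25.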
